A study of Mus musculus with 10 samples.

Results

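Basal-like markers other than keratins are 9 genes that mark the squamous, basal-like form of pancreatic cancer: Ly6d, Anxa8, Serpinb5, Vgll1, Scel, Cst6, Dhrs9, Fam83a and Trp63. They were chosen by gene symbol, and 7 of the 9 had a row in the count table of 15624 genes. Vgll1 and Trp63 had none, so their levels were not analysed here. The data are RNA-seq counts from tumour epithelium of KPFSR mice, cut from frozen sections by laser capture microdissection, in 4 samples of the vehicle group, which received corn oil, and 6 of the group that received tamoxifen. The labels name the line KPFSR and spell out no allele. From knowledge of the model, the alleles that all animals of both groups carry include a mutant p53 allele, Flp recombinase driven by Pdx1, floxed Slc7a11 and a tamoxifen-activated Cre expressed from Rosa26. That Cre is present in all cell types, so tamoxifen acts on the whole animal and not on the epithelium alone. Tumours were established before dosing, and the labels give no dose, time, age or animal for any sample.

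Pancreatic ductal adenocarcinoma is divided by its transcriptome into a classical subtype, with gastric and mucous genes, and a basal-like subtype, which resembles stratified squamous epithelium. In stratified epithelia the transcription factor p63, encoded by Trp63, holds the basal layer, and upper layers express proteins of the cornified envelope. Vgll1 is a cofactor of the TEAD transcription factors. The other markers are surface, structural and protease-control proteins: Ly6d is a lipid-anchored surface protein, Anxa8 an annexin, Serpinb5 the serpin maspin, Scel the envelope precursor sciellin, Cst6 a cystatin, Dhrs9 a retinol dehydrogenase and Fam83a a scaffold protein of growth factor signalling.

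Libraries held 16473902 to 36132316 counts with corn oil and 6899347 to 19462115 with tamoxifen. Slc7a11, the gene that tamoxifen deletes in this model, was at 23.2 to 40.1 normalised CPM with corn oil and 5.90 to 19.3 with tamoxifen. Normalised CPM are counts scaled to library size with TMM factors. Tamoxifen replicates 1, 2 and 3 formed the most similar trio of libraries, with a Pearson r of log2 CPM across genes of 0.921 to 0.963, while no other pair was above 0.878. They are not copies of 1 library, since the chi-square per gene between their counts averaged at least 25.04, and whether they come from 1 animal is not in the labels. All 7 defining epithelial markers were detected, at a summed 12340 to 26585 normalised CPM with corn oil and 11818 to 20220 with tamoxifen. Read from Xist and Ddx3y, 2 corn oil libraries were female and 2 male, while 1 tamoxifen library was female and 5 were male. The female libraries were corn oil replicates 1 and 4 and tamoxifen replicate 6. Sex was thus not balanced between the groups. Replicates are numbered in accession order, and since no label names animals, the p-values reflect only how much these samples varied. In bulk samples, fewer cells of a type and less RNA per cell cannot be told apart.

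The 7 members with a row fell into 4 that were well detected and 3 that were near or at 0. Per kilobase of exon, Anxa8 and Ly6d had the highest levels with corn oil, 153 ± 130 and 115 ± 68.4 normalised CPM per kb (SD, n = 4). Their ranges overlapped, from 31.2 to 332 and from 27.6 to 194. Serpinb5 followed at 54.5 ± 26.6 (SD, n = 4), and its range of 26.8 to 90.4 overlapped that of Ly6d. Scel stood at 8.49 ± 5.64 normalised CPM per kb (SD, n = 4), and its highest corn oil value, 16.1, was below the lowest of Serpinb5. Fam83a, Cst6 and Dhrs9 were at 0.725 ± 1.40, 0.0655 ± 0.131 and 0.0404 ± 0.0421 normalised CPM per kb with corn oil (SD, n = 4), and the ranges of these 3 overlapped. With tamoxifen the order of Serpinb5 over Scel was the same, with ranges of 10.8 to 53.1 and 4.43 to 6.55 normalised CPM per kb.

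Promoters are shown for Serpinb5, Scel and Dhrs9, because each holds a match to TGANTCA. This is a loose form of the AP-1 letters, in which N is any base. The match is TGACTCA, the usual AP-1 letters, in Scel and Dhrs9. In Serpinb5 it is TGAATCA, which differs at the middle base. The share of promoters with TGACTCA alone was not counted. AP-1, a dimer of Fos and Jun proteins, is known to act on many genes of squamous differentiation. Of the 9 markers, 5 had a promoter in the RefSeq table for GRCm38.p6, which holds 250 bases before and 50 after the start. The search covered both strands for TGANTCA, for the TEAD letters GGAATG and for the p53-family letters CATGNNNNNNCATG, and no matches overlapped. TGANTCA was found in 3 of these 5 promoters and in 7.81% of 32851 promoters in the table, GGAATG in that of Vgll1 alone and in 14.7% of all, and CATGNNNNNNCATG in none of the 5 and in 0.712% of all. The promoter of Anxa8 held none of these letters. A match is a description of the sequence and not a site of binding. Sequences run 5′ to 3′ on the strand of the gene, and capitals mark the match. They lie at chr1:106860925-106861224 for Serpinb5, chr14:103513091-103513390 for Scel and chr2:69380212-69380511 for Dhrs9, each on the plus strand.
Serpinb5: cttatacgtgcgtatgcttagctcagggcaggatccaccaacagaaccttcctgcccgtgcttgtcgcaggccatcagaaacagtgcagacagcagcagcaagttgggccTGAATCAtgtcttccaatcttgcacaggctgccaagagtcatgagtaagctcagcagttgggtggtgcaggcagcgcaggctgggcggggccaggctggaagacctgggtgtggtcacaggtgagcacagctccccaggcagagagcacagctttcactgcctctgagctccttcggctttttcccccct
Scel: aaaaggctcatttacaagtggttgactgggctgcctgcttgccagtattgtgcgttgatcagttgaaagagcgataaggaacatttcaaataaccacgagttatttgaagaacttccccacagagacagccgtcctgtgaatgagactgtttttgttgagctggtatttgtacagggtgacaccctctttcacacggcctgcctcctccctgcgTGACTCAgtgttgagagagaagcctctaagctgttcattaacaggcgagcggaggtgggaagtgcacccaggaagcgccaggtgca
Dhrs9: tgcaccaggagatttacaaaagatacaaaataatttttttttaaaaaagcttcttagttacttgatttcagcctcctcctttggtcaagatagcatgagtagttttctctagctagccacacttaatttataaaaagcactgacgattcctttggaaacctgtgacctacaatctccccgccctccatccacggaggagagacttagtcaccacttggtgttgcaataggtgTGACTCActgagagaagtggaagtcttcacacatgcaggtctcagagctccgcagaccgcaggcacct

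The comparison asked whether basal-like markers differed between tamoxifen and corn oil. None of the 4 members with enough counts to be tested passed an FDR of 0.05 in edgeR's quasi-likelihood test with Benjamini-Hochberg adjustment over all 13006 tested genes. The background was 5 genes, or 0.0384% of those tested, so 0 of 4 does not depart from it. At an unadjusted p under 0.05 there was 1 of the 4, Serpinb5, in the lower direction, against 9.7% of all tested genes in either direction and 5.27% in the lower. Values of 2 members were higher with tamoxifen and values of 2 were lower, with a median log2 fold change of -0.30 beside -0.01 over all tested genes. None of the 4 had groups that did not overlap, a pattern seen for 3.23% of tested genes. DESeq2 gave Ly6d no p, adjusted or not, so that gene was not evaluated there, and it called none of the other tested members. Limma voom with sample quality weights called Serpinb5, among 1251 genes in all.

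**Figure D1:**
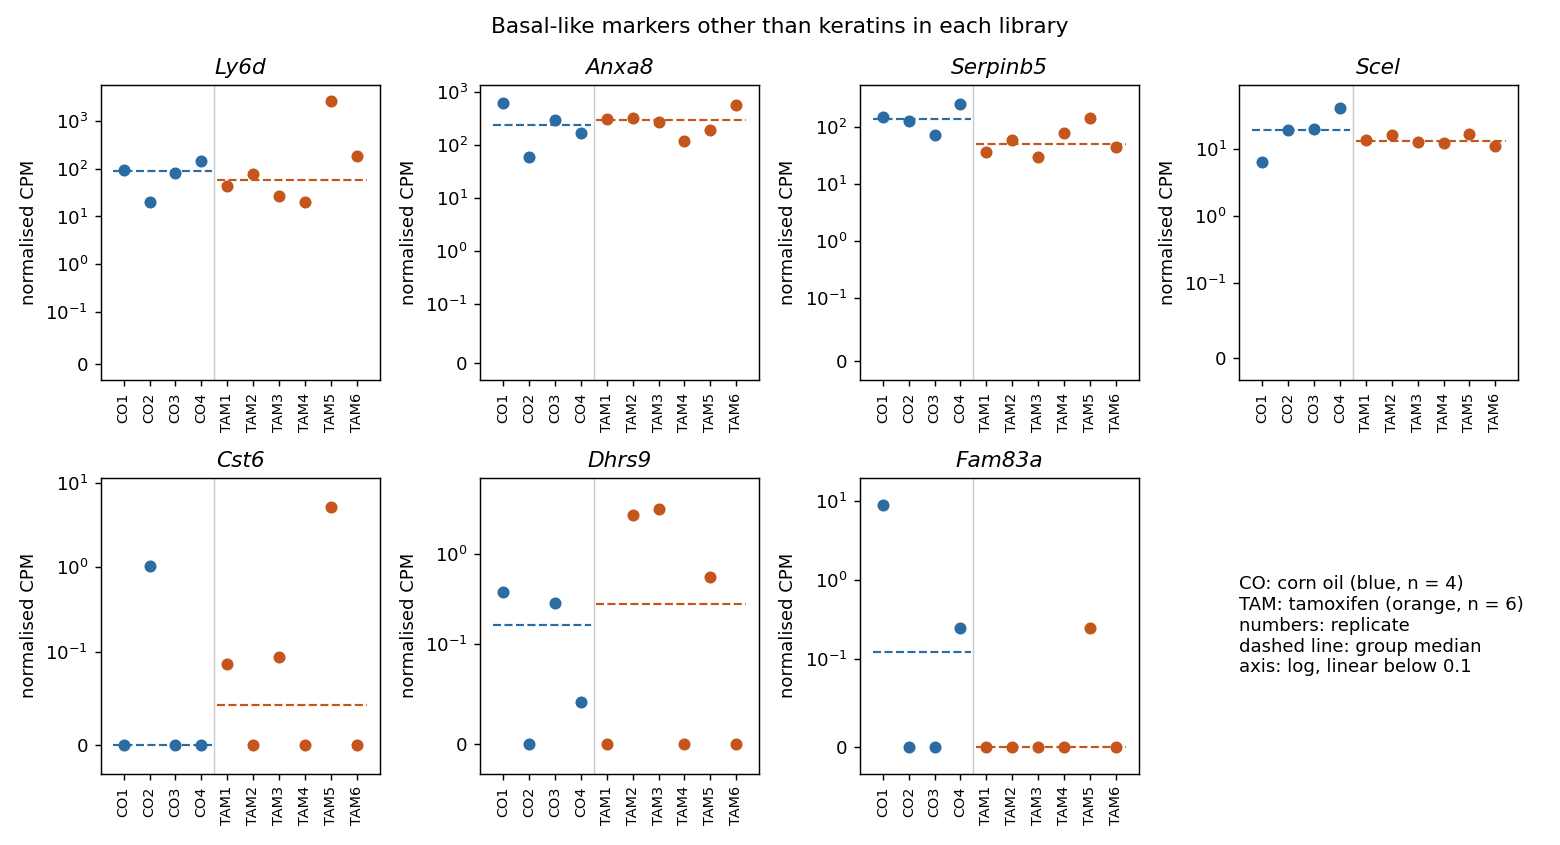
Normalised CPM of the 7 members with a row in each of 10 libraries, on a log axis that is linear below 0.1; blue points are corn oil, orange points tamoxifen and dashed lines group medians. Ly6d stands at 2648 in tamoxifen replicate 5 and between 20.5 and 190.3 in the other tamoxifen libraries.

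Ly6d, a lipid-anchored surface protein of the Ly6/uPAR family that marks stratified squamous epithelium, varied most of the 4 well-detected members. Its highest library was 129-fold above its lowest, against 6.32-fold to 10.7-fold for the other 3. It was at 93.7, 20.6, 83.8 and 145 normalised CPM in corn oil replicates 1 to 4. With tamoxifen it was at 43.0, 76.6, 26.9, 20.5, 2648 and 190.3 in replicates 1 to 6. Replicate 5 alone stood far above the rest, and the other 5 tamoxifen libraries spanned about the corn oil range. That library held 53300 of the 65134 Ly6d reads of the whole series, or 81.8%. The group means were 85.7 ± 50.9 (SD, n = 4) and 501 ± 1054 (SD, n = 6), which is a log2 fold change of 2.55 with an SE of 1.34 (adjusted p 0.583 in edgeR). Without tamoxifen replicate 5 the tamoxifen mean was 71.4 ± 69.9 (SD, n = 5) and the log2 fold change was -0.24 (edgeR adjusted p 0.948). The sign of the Ly6d value therefore rests on 1 library.

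Among 13006 tested genes, 3 were over 10-fold higher in tamoxifen replicate 5 than in every other library and at 10 CPM or more there: Ly6d, the chitinase-like gene Chi3l4 and the serine protease gene Tmprss6. Chi3l4 was at 162 normalised CPM in that library and at most 9.22 elsewhere, and Tmprss6 at 30.5 and at most 2.13. In the other libraries, between 0 and 7 genes stood apart in this way. Set against the median of the other 9 libraries, Ly6d was 5.11 higher on the log2 CPM scale in tamoxifen replicate 5, and 58 tested genes, Ly6d included, had a difference at least as large. The library was not unusual in how many genes it led: it had the highest value for 5.47% of tested genes, where the libraries ranged from 4.63% to 17.2%.

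The GRCm38 position of Ly6d is chromosome 15, 74762056 to 74763620, minus strand, inside a cluster of Ly6 genes, and shared no exon sequence with another annotated gene. Within 500 kb, 14 other genes were tested, and 1 of them was highest in tamoxifen replicate 5. That gene was Ly6c1, a surface protein of monocytes and endothelium, at 313 normalised CPM there and 5.69 to 298 in the others. Ly6k, 36.4 kb away, was at 1.99 in tamoxifen replicate 5 and at 0 to 520 in the others, with its highest value in corn oil replicate 3. Psca, a surface protein of stomach and bladder epithelium, was at 27.8 there and 1.16 to 396 in the others. The median difference of the 14 neighbours was 0.95 on the log2 CPM scale, with a range of -0.92 to 3.33, against 5.11 for Ly6d and 0.04 over all tested genes. The raised level of tamoxifen replicate 5 was thus not of the same size across the cluster.

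**Figure D2:**
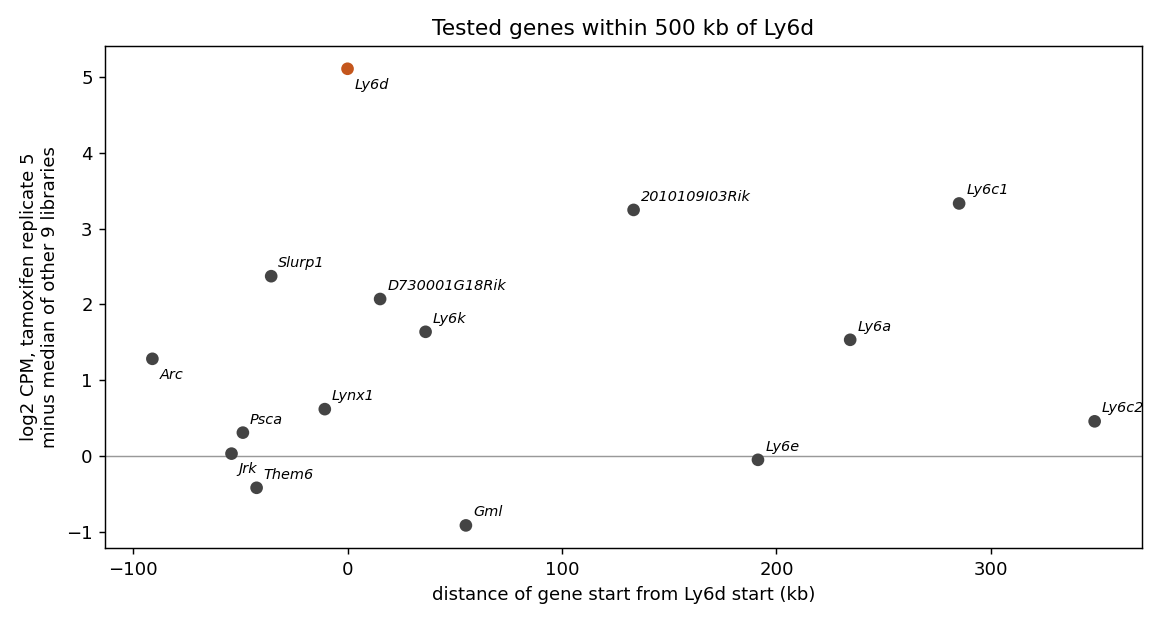
Log2 CPM in tamoxifen replicate 5 minus the median of the other 9 libraries for the 15 tested genes within 500 kb of Ly6d, Ly6d included, against the distance of their start from that of Ly6d. Ly6d is at 5.11 and the neighbours lie between -0.92 and 3.33.

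In mouse bone marrow Ly6d also marks lymphoid progenitors of the B lineage. The 7 B-lineage markers with a row summed to 2.31 to 9.72 normalised CPM with corn oil and 1.31 to 9.04 with tamoxifen. Tamoxifen replicate 5 had 9.04, next to 9.72 in corn oil replicate 4, where Ly6d was at 145, and 3 of the 7 markers were at 0 in replicate 5. The part of B-lineage cells in the Ly6d values was not tested. Fibroblast markers summed to 310 normalised CPM in that library, within the 133 to 1050.5 of the tamoxifen group. Macrophage markers summed to 222, within 66.8 to 572.

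Serpinb5, the non-inhibitory serpin maspin of epithelial cells, was at 149, 129, 73.6 and 249 normalised CPM in corn oil replicates 1 to 4. With tamoxifen its lowest value was 29.7, its median 51.1 and its highest 146. Of the 6 tamoxifen libraries, 4 were below every corn oil library, while replicates 4 and 5, at 77.8 and 146, lay within the corn oil range. The means were 150 ± 73.1 (SD, n = 4) and 65.5 ± 43.0 (SD, n = 6), which is a log2 fold change of -1.19 with an SE of 0.45 (unadjusted p 0.0189, adjusted p 0.383 in edgeR). When tamoxifen replicates 1, 2 and 3 were summed into 1 sample the value was -0.94 (edgeR adjusted p 0.916), and it was -0.75 when they were left out (edgeR adjusted p 0.980). Limma voom gave -1.50 with an adjusted p of 0.0381. Serpinb5 lies on chromosome 1 at 106861173 to 106883348.

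Scel, a precursor protein of the cornified envelope, was at 6.396, 18.9, 19.3 and 40.4 normalised CPM in corn oil replicates 1 to 4. With tamoxifen it ran from 11.1 through a median of 12.9 to 16.4. The tamoxifen values all lay inside the wider corn oil range. The means were 21.3 ± 14.1 (SD, n = 4) and 13.6 ± 2.18 (SD, n = 6), which is a log2 fold change of -0.64 with an SE of 0.49 (adjusted p 0.743 in edgeR). Without corn oil replicate 4, the highest library, it was -0.13. Scel lies on chromosome 14 at 103513342 to 103612797.

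Anxa8, a calcium-dependent phospholipid-binding annexin, was at 624.7, 58.7, 301 and 170.3 normalised CPM in corn oil replicates 1 to 4. With tamoxifen its lowest value was 119, its median 293 and its highest 572. Both ends of the whole range were corn oil libraries, and the groups overlapped throughout. The means were 289 ± 245 (SD, n = 4) and 298 ± 155 (SD, n = 6), which is a log2 fold change of 0.05 with an SE of 0.55 (adjusted p 0.991 in edgeR). Leaving out corn oil replicate 1 gave 0.75 and leaving out replicate 2 gave -0.29, so its sign is not settled. Anxa8 lies on chromosome 14 at 34085981 to 34100571.

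The other 3 members were found in few libraries and were not tested, because they did not pass the filter on low counts. Cst6, which encodes cystatin M/E, an inhibitor of cathepsin L and legumain, had 140 reads in all, of which tamoxifen replicate 5 held 103 and corn oil replicate 2 held 34. It was at 0 in 6 libraries, and tamoxifen replicates 1 and 3 had 1 and 2 reads. Tamoxifen replicate 5 was thus the highest library for both Ly6d and Cst6, at 5.12 normalised CPM for Cst6. Fam83a, a scaffold protein of EGFR signalling, had 155 reads, of which corn oil replicate 1 held 144, or 8.86 normalised CPM. It had 6 reads in corn oil replicate 4, 5 in tamoxifen replicate 5 and 0 in the other 7 libraries. Dhrs9, a retinol dehydrogenase, had 144 reads, with 53 and 66 in tamoxifen replicates 2 and 3 and 11 in replicate 5. Corn oil replicates 1, 3 and 4 had 6, 7 and 1 reads, and 4 libraries had 0. A count of 0 allows up to 3 reads, or 0.0914 to 0.490 normalised CPM depending on the library. This limit covers counting error only, and in amplified libraries without molecular identifiers reads are not independent molecules.

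The 4 tested members did not share 1 order over the 10 libraries. Given as a description over libraries that share groups and differ in depth, Pearson's r of log2 CPM was 0.40 for Serpinb5 and Scel, 0.37 for Ly6d and Serpinb5, 0.26 for Ly6d and Anxa8 and 0.12 for Ly6d and Scel. For Anxa8 it was -0.35 with Serpinb5 and -0.53 with Scel. Without tamoxifen replicate 5 the value was 0.67 for Ly6d and Anxa8, 0.23 for Ly6d and Serpinb5 and 0.12 for Ly6d and Scel. Serpinb5 and Scel were both highest in corn oil replicate 4, whereas Anxa8 was highest in corn oil replicate 1.

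The genes with the most similar pattern to each member were sought among 9111 others with a mean of at least 10 normalised CPM. Likeness was Pearson's r of log2 CPM over 10 libraries. For Ly6d they were Nfu1 (r 0.952), an iron-sulfur cluster scaffold, the potassium channel gene Kcnn4 (r 0.826) and the urotensin gene Uts2 (r 0.810). All 3 were highest in tamoxifen replicate 5, and without that library r was 0.843, 0.604 and 0.493. Their spans were far narrower than that of Ly6d, with Nfu1 between 124 and 182 normalised CPM. For Anxa8 they were Nudt1 (r 0.952), which degrades oxidised nucleotides, Zfp358 (r 0.949) and Stxbp3a (r 0.946). For Serpinb5 they were Il1rn (r 0.942), the interleukin-1 receptor antagonist, the mitotic spindle gene Nusap1 (r 0.940) and Derl2 (r 0.934), which acts in endoplasmic reticulum protein disposal. For Scel they were the microtubule gene Ckap5 (r 0.912), Creld2 (r 0.893), an endoplasmic reticulum stress gene, and Snrpa (r 0.873), a splicing protein. No member was among the 3 genes most like another. These values describe 10 libraries and carry no p.

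The wider basal-like signature summed to 2459 to 8495 normalised CPM with corn oil and 2943 to 8458 with tamoxifen, of which the ductal keratin Krt7 held 1848 to 7495 and 2173 to 5441. It holds 6 of the members with a row and 11 further genes with a row, among them Krt17, Krt6a, Areg and Slc2a1. Of those 11, corn oil replicate 4 was highest for 7, tamoxifen replicate 5 for 2 and tamoxifen replicate 6 for 2. Over all tested genes corn oil replicate 4 was highest for 11.5%. Of 9 signature genes tested, members included, 0 passed the FDR, and the median log2 fold change was -0.20. Slc2a1, the glucose transporter, was at 97.4 to 283 normalised CPM with corn oil and 109 to 589 with tamoxifen, which is a log2 fold change of 1.29 with an SE of 0.44 (adjusted p 0.338 in edgeR). It is also a hypoxia gene.

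**Figure D3:**
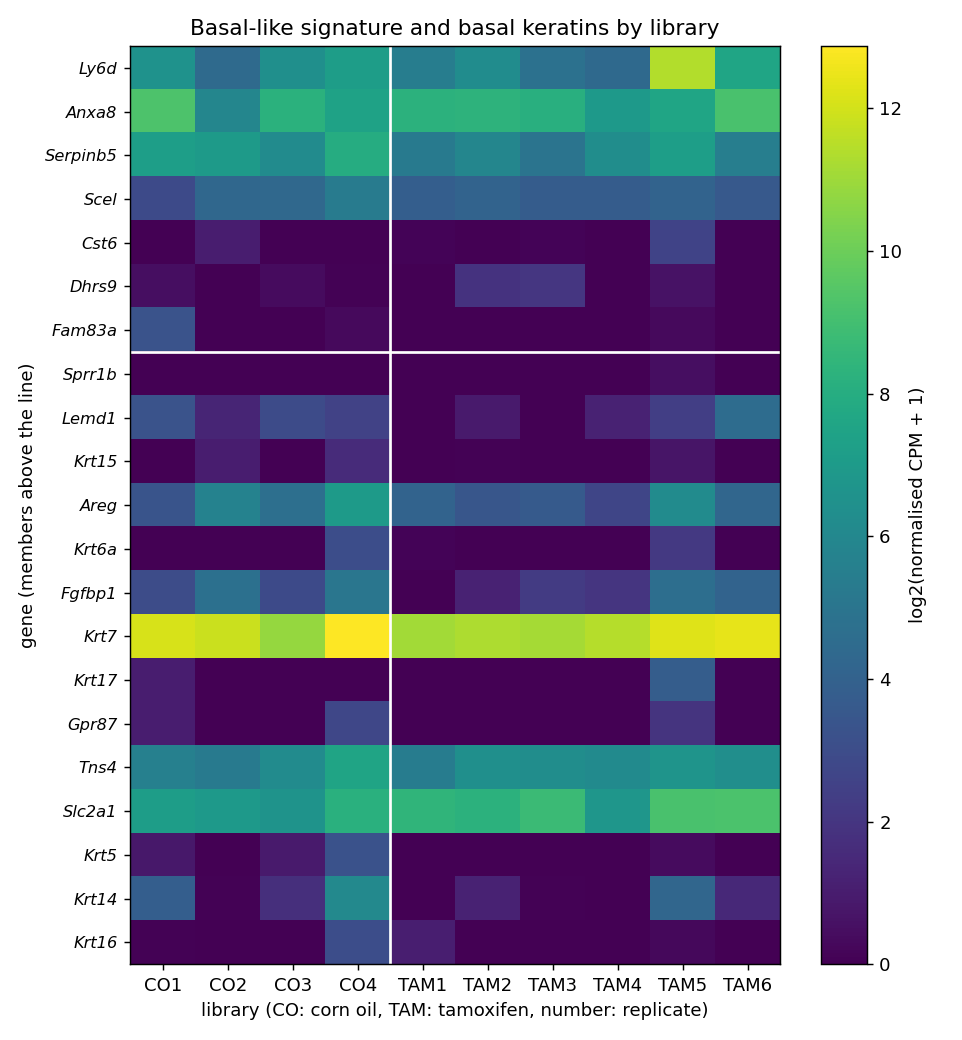
Log2 of normalised CPM plus 1 for the 7 members (above the white line) and the other basal-like signature genes and basal keratins in each library. Ly6d is brightest in tamoxifen replicate 5, and Krt5, Krt6a, Krt14 and Krt16 are brightest in corn oil replicate 4.

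The basal keratins, filament proteins of the basal layer, were near 0 in most libraries. Of 6 with a row, 5 were highest in corn oil replicate 4 and Krt17 in tamoxifen replicate 5, at 13.02 normalised CPM against at most 1.05 elsewhere. Their sum was 90.1 normalised CPM in corn oil replicate 4, 35.9 in tamoxifen replicate 5, 15.4 in corn oil replicate 1 and at most 3.26 in the other 7 libraries. Krt14 alone was tested, at 0.0609 to 65.4 normalised CPM with corn oil and 0 to 18.3 with tamoxifen, which is a log2 fold change of -2.49 with an SE of 1.72 (adjusted p 0.709 in edgeR). Corn oil replicate 4, with the most basal keratin, was thus also highest for Serpinb5 and Scel, and tamoxifen replicate 5, next in order, for Ly6d and Cst6. The remaining members with a row did not follow this, as Anxa8 and Fam83a were highest in corn oil replicate 1 and Dhrs9 in tamoxifen replicate 3.

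Genes of basal adhesion and regulation that p63 is known to control in skin were mostly detected although Trp63 had no row. Of 16 with a row, 14 were tested, 0 passed the FDR, 12 had lower values with tamoxifen and the median log2 fold change was -0.77. Over all 13006 tested genes, 6596 had lower values and 6410 higher, and 0.0384% passed the FDR. The same background applies to the counts in the lists below. Corn oil replicate 4 was highest for 8 of the 16. Lama3, a chain of laminin-332 in the basement membrane, was at 62.2 to 255 normalised CPM with corn oil and 4.87 to 84.9 with tamoxifen, which is a log2 fold change of -1.63 with an SE of 0.66 (adjusted p 0.433 in edgeR). Jag2, a Notch ligand, went the other way, at 0.291 to 9.26 with corn oil and 15.8 to 104 with tamoxifen, with no overlap and a log2 fold change of 3.45 with an SE of 0.80 (adjusted p 0.154 in edgeR).

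Cornified envelope and late squamous genes, to whose class Scel belongs, had 15 genes with a row and 12 tested, of which 0 passed the FDR and 9 had lower values, with a median log2 fold change of -0.65. Ppl, the desmosomal linker periplakin, was at 22.3 to 67.5 normalised CPM with corn oil and 69.3 to 129.8 with tamoxifen (log2 fold change 1.08, SE 0.32, edgeR adjusted p 0.285). Krt4, a keratin of the upper layers of oesophagus and forestomach, was at 16.7 to 194 with corn oil and 0.174 to 60.9 with tamoxifen (log2 fold change -2.001, SE 1.10, edgeR adjusted p 0.615).

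Vgll1 had no row, and of 15 TEAD genes, cofactors and targets 0 passed the FDR, with 8 higher, 7 lower and a median log2 fold change of 0.15. The target Ctgf, a matricellular protein, was at 493 to 932 normalised CPM with corn oil and 939.5 to 3610 with tamoxifen (log2 fold change 1.005, SE 0.43, edgeR adjusted p 0.481). Axl, a receptor tyrosine kinase, was at 11.7 to 68.4 and 90.1 to 136 (log2 fold change 1.39, SE 0.42, edgeR adjusted p 0.292). Groups did not overlap for either, as for 3.23% of tested genes. Fibroblast markers, a cell type that also expresses both genes, had higher values with tamoxifen for 9 of 9 tested members and summed to 126 to 466 with corn oil and 133 to 1050.5 with tamoxifen, and their part in these values was not tested.

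**Figure D4:**
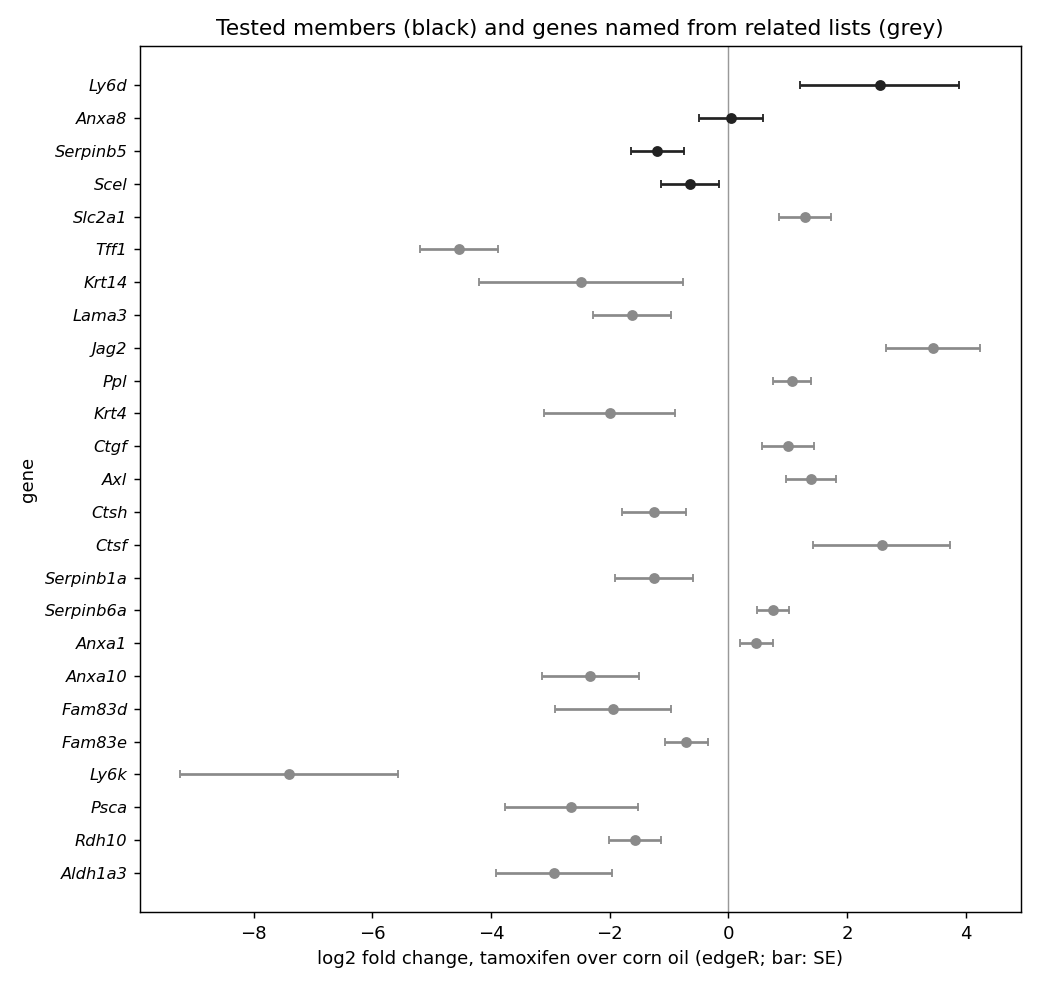
Log2 fold changes, tamoxifen over corn oil, with SE bars from edgeR for the 4 tested members (black) and the genes named from related lists (grey). Among the members Ly6d has the widest bar, 2.55 with an SE of 1.34, and Tff1 is the gene shown that passed the FDR with all 10 libraries and no covariate, a call lost with sex as a covariate, with tamoxifen replicates 1, 2 and 3 summed or left out, and without any 1 library other than tamoxifen replicate 4 or 5.

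Of relatives of the members by family or substrate, 0 passed the FDR in any list. Other Ly6/uPAR genes had lower values for 9 of 11 tested and a median log2 fold change of -0.62, with Ly6k at -7.40 (SE 1.84, edgeR adjusted p 0.189) and Psca at -2.65 (SE 1.12, edgeR adjusted p 0.471). Ly6k was at 0.548 to 520 normalised CPM with corn oil and 0 to 1.99 with tamoxifen. Its corn oil mean was 131 with an SD of 260. Corn oil replicate 3, at 520, made up nearly all of the corn oil sum. The lowest corn oil value, 0.548, was below the tamoxifen mean of 0.723. The Ly6k fold change as a whole, and not its size alone, therefore rests on that library. Other annexins had a median of 0.34 over 11 tested, with 7 higher. Anxa10, an annexin of gastric epithelium that belongs to the classical markers, was at -2.33 (SE 0.82, edgeR adjusted p 0.350), and Anxa1 was at 0.47 (edgeR adjusted p 0.651). Other clade B serpins had a median of -0.34 over 6 tested, with Serpinb6a at 0.75 (edgeR adjusted p 0.350) and Serpinb1a at -1.25 (edgeR adjusted p 0.579).

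Cysteine proteases and other cystatins, relatives and targets of Cst6, had a median log2 fold change of 0.19 over 11 tested genes. The lysosomal proteases Ctsf and Ctsh were at 2.58 (SE 1.15) and -1.25 (SE 0.54), with edgeR adjusted p of 0.496 and 0.481. Other FAM83 genes had a median of -0.42 over 6 tested, with the mitotic gene Fam83d at -1.95 and Fam83e at -0.71 (edgeR adjusted p 0.562 and 0.574). Genes of retinoid metabolism, the pathway of Dhrs9, had a median of -0.03 over 13 tested, with 5 higher and 8 lower. Rdh10, which oxidises retinol, was at 284 to 803 normalised CPM with corn oil and 90.8 to 407 with tamoxifen (log2 fold change -1.58, SE 0.44, edgeR adjusted p 0.241). Aldh1a3, which makes retinoic acid, was at 40.1 to 1535 and 6.79 to 248 (log2 fold change -2.94, SE 0.98, edgeR adjusted p 0.327).

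Classical markers, the opposite program, had 16 of 17 tested genes lower with tamoxifen, a median log2 fold change of -2.02 and 1 gene past the FDR. That gene was Tff1, a gastric trefoil peptide, at 2398 to 9644 normalised CPM with corn oil and 76.6 to 648 with tamoxifen, which fell by 4.53 on the log2 scale (SE 0.66, edgeR adjusted p 0.0362). The call was lost in edgeR with sex as a covariate (log2 fold change -4.54, adjusted p 0.0984) and with tamoxifen replicates 1, 2 and 3 summed (-4.19, adjusted p 0.267) or left out (-3.91, adjusted p 0.509). It was also lost without any 1 of the 4 corn oil libraries or of tamoxifen replicates 1, 2, 3 and 6, with Tff1 at -4.79 to -4.13 and adjusted p 0.0552 to 0.133. It held without tamoxifen replicate 4 (adjusted p 0.0445) or 5 (0.0225). Defining epithelial markers had lower values with tamoxifen for 6 of 7 genes, with a median log2 fold change of -0.35, and fibroblast markers higher values for 9 of 9 tested, with a median of 0.79. Their part in the classical values was not tested. The median log2 CPM of the 4 tested basal-like members was 5.12 to 7.29 with corn oil and 4.83 to 7.38 with tamoxifen, so the groups overlapped. That of the classical markers was 6.57 to 8.65 with corn oil and 4.01 to 7.86 with tamoxifen, which also overlapped. Tamoxifen replicate 5 was highest of the tamoxifen libraries for both medians, at 7.38 and 7.86. The summed normalised CPM of the classical markers did not overlap, at 12189 to 19471 with corn oil and 2850 to 7445 with tamoxifen. That sum is weighted to abundant genes such as Tff1 and Ctse. The difference between the lists was not tested.

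**Figure D5:**
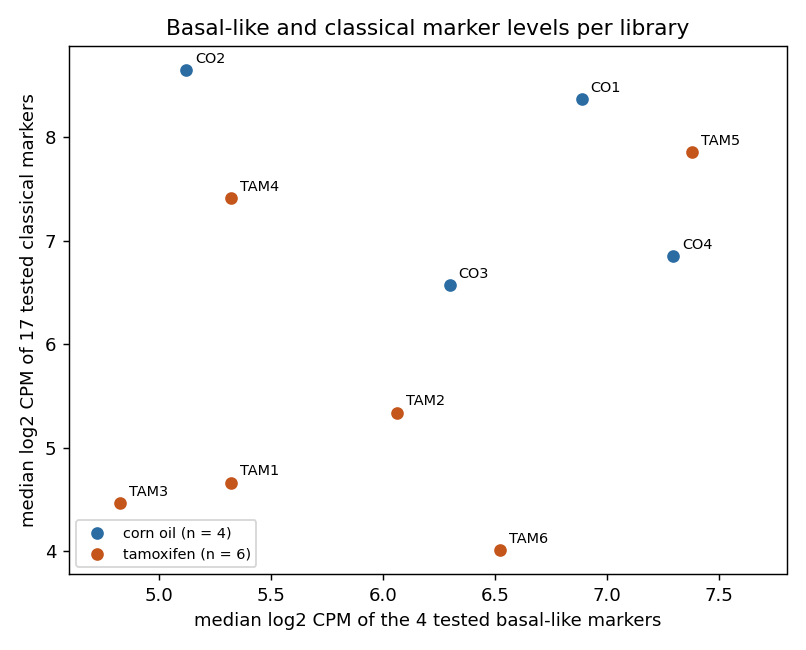
Median log2 CPM of 17 tested classical markers against that of the 4 tested basal-like members in each of 10 libraries (blue corn oil, orange tamoxifen). Tamoxifen replicate 5 is highest on the basal-like axis at 7.38, next to corn oil replicate 4 at 7.29.

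Summed over each list, markers of other cell types were below the defining epithelial markers in every library. None of their tested genes passed the FDR. Acinar markers summed to 17.2 to 204 normalised CPM with corn oil and 33.0 to 86.8 with tamoxifen, and endothelial markers to 0.305 to 22.1 and 3.68 to 15.1. Cela1 alone made up nearly all of the acinar sum, at 17.2 to 204 with corn oil and 33.0 to 86.7 with tamoxifen. No other acinar marker was above 3.64 in any library. Macrophage markers summed to 229 to 367 with corn oil and 66.8 to 572 with tamoxifen. Mesothelial markers summed to 1358 to 2969 and 1380 to 2821, and that list holds Msln, which pancreatic cancer cells also express. Msln alone was at 1354 to 2864 with corn oil and 1379 to 2809 with tamoxifen. It was above the epithelial marker Cdh1, at 396 to 838 and 330 to 777. In each of these lists, every marker with a row had a count in at least 1 library, as did 15621 of all 15624 rows. This therefore does not show whether those cell types were present. Adgre1, Cpb1, Cel, Lrrn4 and Muc16 of these lists had no row.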

How the data were processed

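Tumour epithelium of 10 KPFSR mouse samples was profiled by RNA-seq. Libraries were made with SMART-seq v4 and Nextera XT from RNeasy-purified RNA, per the labels' protocols, and carry no strand information. The deposited values are raw counts of reads for each gene symbol. The submitters' processing notes name featureCounts 1.5.0-p3, STAR 2.5.2b and bcl2fastq 2.17 with the mm10 build. Annotation, strand setting and treatment of multiply mapped reads: not given in the sources used here.

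Counts were tested with edgeR 4.0.16 in R 4.3.3: genes passing filterByExpr (13006), TMM factors, quasi-likelihood F test without covariates, Benjamini-Hochberg adjustment over all tested genes. The SE is the absolute log2 fold change divided by the square root of F. Log2 CPM used a prior count of 2. Positions and exonic lengths came from GENCODE M21 basic transcripts on GRCm38, the assembly behind mm10 (93.55% of symbols matched). Groups came from the treatment label.

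The members and lists were chosen with earlier results of these data known. All members were named; of each related list, up to 4 genes past the FDR were named, or else the 2 with the smallest p among those averaging at least 0 in log2 CPM. Alternatives were RLE factors, no filter, 5 CPM in 4 libraries, DESeq2 1.42.0, limma 3.58.1 voom, sex as a covariate (read from Xist and Ddx3y), merging or omitting libraries, and leaving out each library. The test was checked on simulated data of 12192 genes. It called 2.13% of 47 genes changed 2-fold, 53.3% of 45 changed 4-fold and 75% of 44 changed 16-fold, with 6 false calls. Changes near 2-fold were thus seldom called, which limits what a member that was not called can show. Figures used matplotlib 3.10.9.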

Additional observations from a re-analysis of the deposited data

Results flagged for a closer look

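Each group was searched for a library far from the others in each of the 7 members by the ratio of its gap to the group's range, which for well-detected genes chance passes in about 1 in 20 groups. Of 14 searches 5 found one, but that rate does not hold for Cst6 and Fam83a, which were at 0 in 6 and 7 of the 10 libraries. Ly6d was at 2648 normalised CPM in tamoxifen replicate 5, against 190.3 in the next tamoxifen library and 20.5 in the lowest. Cst6 was at 5.12 in the same library, against 0.0947 in the next. Cst6 was at 1.04 in corn oil replicate 2 and at 0 in the other corn oil libraries. Fam83a was at 8.86 in corn oil replicate 1, against 0.249 in the next corn oil library. Fam83a was at 0.248 in tamoxifen replicate 5, which is 5 reads, and at 0 in the other tamoxifen libraries.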

How the results depend on the processing

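Under 19 alternatives none of the 4 tested members passed the FDR, except Serpinb5 under limma voom with sample quality weights, which gives a count of 1. The value of Serpinb5 kept its sign throughout, from -1.57 to -0.75, and that of Scel from -0.95 to -0.13. Ly6d had a negative value under limma voom (-0.18) and without tamoxifen replicate 5 (-0.24), and otherwise reached 3.47. Its range was -0.24 to 2.92 when 1 library was left out. DESeq2 gave Ly6d a fold change but no p, so it was not evaluated there. Anxa8 was negative when tamoxifen replicates 4 and 6 (-0.075), tamoxifen replicate 6 alone (-0.25), corn oil replicate 2 (-0.29) or corn oil replicate 4 (-0.14) were left out, and reached 0.75 without corn oil replicate 1. The median of the 4 ran from -0.49 to -0.09. The cause of these shifts was not tested. Over all genes the number past the FDR in edgeR was 5. It was 243 with DESeq2, 1251 with limma voom and 77 without tamoxifen replicates 4 and 6. It was 0 with sex as a covariate (1196 at an unadjusted p under 0.05), 0 with tamoxifen replicates 1 to 3 summed (710 unadjusted) and 0 without them (602 unadjusted). Leaving out 1 library gave 0 to 11 (894 to 1658 unadjusted), with 0 when corn oil replicate 1 or 3 or tamoxifen replicate 1, 2 or 3 was left out, 1 for corn oil replicate 4, 2 for corn oil replicate 2, 9 for tamoxifen replicate 5 and 11 for tamoxifen replicate 4. Cst6, Dhrs9 and Fam83a were tested only where the filter let them in, and none passed the FDR there. No paired analysis was possible because the labels give no replicate numbers.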
